A study of Mus musculus with 14 samples.

Results

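The genes described here are the 10 that make microRNAs and let them act: Drosha, Dgcr8 and Dicer1, which cut microRNAs out of their precursors, the Argonaute genes Ago1, Ago2, Ago3 and Ago4, and the genes of the Argonaute partner proteins Tnrc6a, Tnrc6b and Tnrc6c. They were taken by symbol, as a set proposed with earlier results of these data in view. Each of the 10 matched 1 row among the 48363 genes with values, and all 10 were among the 16241 genes tested, those with at least 10 normalized counts in at least 2 libraries.

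RNA-seq was performed on regulatory T cells (Tregs), the FOXP3-expressing CD4+ T cells that restrain immune responses. The cells were sorted by their FOXP3-YFP reporter from pooled spleen and lymph nodes of untreated mice. Of the 14 libraries, 5 held miR-15/16 cKO Tregs, 4 held WT Tregs, 3 held CD25hi and 2 held CD25lo Tregs, the last 2 groups being bins of WT Tregs sorted for high or low CD25, the IL-2 receptor alpha chain. The cKO mice were miR-15/16 fl/fl and carried a Cre recombinase expressed from the Foxp3 locus, so deletion was limited to cells that express FOXP3, whereas WT, CD25hi and CD25lo cells came from mice with the same Foxp3-Cre and wild-type miR-15/16 loci. The study's methods describe adult mice of both sexes, matched for age and sex and used at a younger or an older stated age. Which age and sex, and how many mice, lie behind each of these libraries is not given in the sources used here. The study's supplement counts more biological replicates of cKO and of WT Tregs than there are libraries here. The p-values therefore measure the spread between libraries.

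MicroRNA precursors are cleaved in the nucleus by the Microprocessor, in which DROSHA is the nuclease and DGCR8 binds the RNA. DICER1 makes the final cut in the cytoplasm, and an Argonaute protein keeps the mature strand and pairs it with target mRNAs. TNRC6 proteins (GW182) bind Argonaute and recruit the enzymes that shorten the poly(A) tail of the target. In Treg cells loss of Dicer or Drosha is known to impair suppressive function.

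The microRNAs missing in cKO Tregs share 1 seed, the stretch that pairs with targets. Their mature sequences (RefSeq, GRCm38.p6) are shown with bases 2 to 8 in capitals, because these letters define the matches looked for in the genes.
miR-15a: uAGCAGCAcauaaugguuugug
miR-15b: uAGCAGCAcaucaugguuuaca
miR-16: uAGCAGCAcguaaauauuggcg
The miR-15a and miR-16-1 hairpins lie on chromosome 14, minus strand, with mature miR-15a at chr14:61632075-61632096, and the miR-15b and miR-16-2 hairpins lie on chromosome 3, plus strand, with mature miR-15b at chr3:69009775-69009796. All 4 hairpins were at 0 reads in all 14 libraries, WT included, so these libraries do not show whether the deletion took place.

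Matches were looked for on the sense strand of the longest annotated 3′ UTR of each gene (GENCODE M21, GRCm38). The letters searched were TGCTGCT, which pairs with bases 2 to 8, and GCTGCTA, which pairs with bases 2 to 7 and has an A opposite base 1. TGCTGCTA, in which both overlap, was counted once, as an 8-base match. All 4 Argonaute genes and Tnrc6b held at least 1 match. Ago1 held 2, Ago2 held 3, Ago4 held 2, Ago3 held 5 (of which 2 overlap each other) and Tnrc6b held 5, 1 of them the 8-base match. Drosha, Dgcr8, Dicer1, Tnrc6a and Tnrc6c held none of these letters in the UTR used. Both Ago1 matches and the 8-base match of Tnrc6b are printed with their flanks, the match in capitals, since Ago1 is the gene with the smallest p-value below and Tnrc6b has the longest match.
Ago1, first match: caggctggggaatttTGCTGCTcccat
Ago1, second match: tagaaggtctacaagGCTGCTAagtgt
Tnrc6b, 8-base match: ctgtcctctgtgactTGCTGCTAttgag
These stretches lie at chr4:126437942-126437968 and chr4:126435895-126435921 on the minus strand and at chr15:80931441-80931468 on the plus strand. Among the 12731 tested genes with an annotated 3′ UTR, 27.8% held a match and 4.46% an 8-base match. UTR length has to be set beside this. The UTR of Ago1 spans 4491 bases, and 62.9% of the genes with UTRs of like length (0.8 to 1.25 times as long) held a match. The corresponding share was 84.0% for Ago2 (11064 bases), 86.2% for Ago3 (12742 bases), 86.0% for Tnrc6b (11609 bases) and 56.0% for Ago4 (3682 bases). Among the genes with no match, it ran from 4.51% for Drosha, whose UTR has 169 bases, to 57.9% for Dicer1, whose UTR has 3851 bases. Whether any of these matches is used was not tested. Between cKO and WT the log2 fold changes were 0.26 for Ago1, -0.17 for Ago2, -0.08 for Ago3 and 0.10 for Tnrc6b. For Ago4, which was near 0 counts, it was 1.18, and limma called none of these genes.

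**Figure D1:**
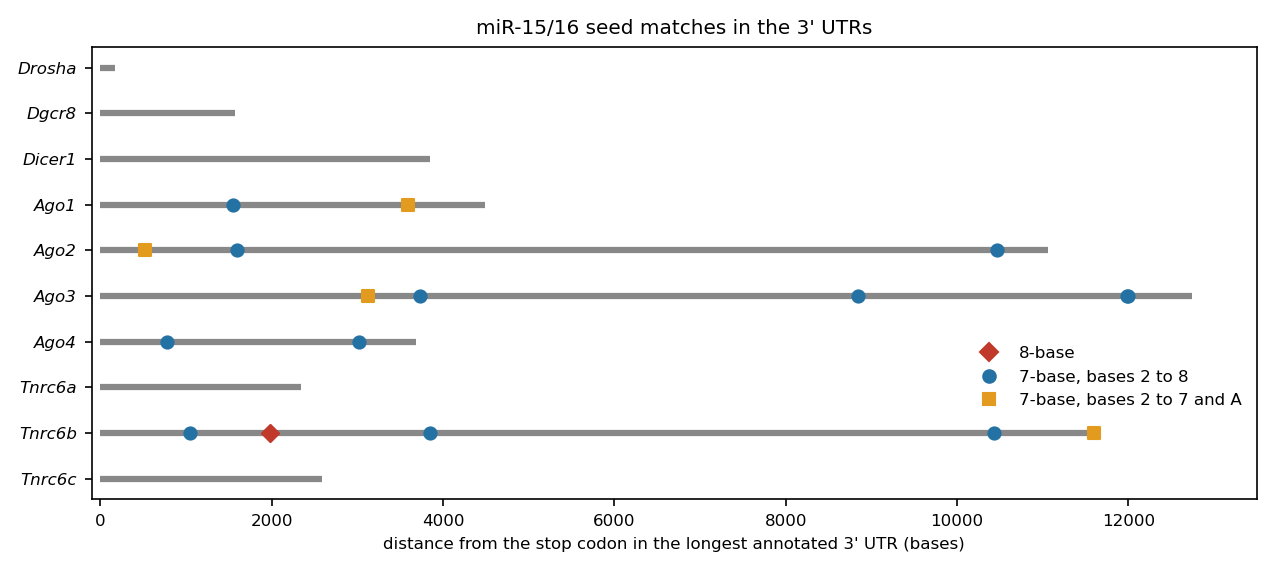
Each grey bar is the longest annotated 3′ UTR of a gene, drawn from its stop codon (in bases), and each marker is the start of a miR-15/16 seed match of the kind given in the key. The matches sit in the 4 Argonaute genes and Tnrc6b, which include the longest UTRs, and the 2 overlapping matches of Ago3 near base 11987 appear as 1 marker.

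Each library held between 30055573 and 35226685 reads in genes. Values are normalized counts, the reads of a gene divided by the library's size factor. Foxp3, which defines Tregs, ranged from 14545.5 to 24370.2 normalized counts and Cd4 from 35746.6 to 45017.8. Il2ra, which encodes CD25, was 14681.7 to 15026.5 in the CD25lo and 39582.7 to 41188.2 normalized counts in the CD25hi libraries. All 5 cKO libraries and 1 of the 4 WT libraries (replicate 3) held Xist at 34037.7 to 43337.1 normalized counts, the mark of female cells, against 0 to 64.6 in the other 8, so by this measure the cKO and WT libraries were not matched for sex. A list of 22 immediate early genes, induced within minutes by stimulation, was summarized by its mean log2 level. This level was 12.65 to 12.87 in cKO replicates 1 to 3 and 13.41 to 13.57 in cKO replicates 4 and 5. In WT this level was 11.81 for replicate 4, whereas the other 3 libraries had 13.34 to 13.60. It was 11.63 to 11.91 in the CD25hi and 11.60 to 12.13 in the CD25lo libraries. WT replicate 4 stood apart from the other WT libraries in further genes, with Ctla4 at 13255.5 against 32969.2 to 36409.8 normalized counts and the immediate early gene Fosl2 at 377.2 against 3851.6 to 4097.8. Its values lay near those of the CD25 bins (Ctla4 8536.3 to 16236.2, Fosl2 266.7 to 449.1). Its summed level of 12 myeloid markers was 1901.2, whereas the other 3 WT libraries had 5096.5 to 9411.9. In cKO this sum was 1370.8 to 5797.1, and none of the 10 tested markers was called. Of 10 Treg markers, 6 were called lower in CD25lo than in CD25hi, beside 164 of all 16241 tested genes. The list includes Il2ra, whose protein the bins were sorted on. Between cKO and WT 1 Treg marker was called higher and 1 lower, beside 2.04% and 1.48% of all genes. Results that change with these differences are given with sex or the immediate early level as a term.

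The order of the levels was determined first, per kilobase of merged exons, since longer mRNAs give more reads. In WT Tregs Ago2, the Argonaute with strong slicer activity, led with 912 ± 67.8 normalized counts per kilobase (SD, n = 4), followed by Tnrc6a with 877 ± 69.5. Their ranges overlapped. Ago1 followed at 623 ± 26.3 and Tnrc6c at 570 ± 38.2, again with overlapping ranges, and the lowest Tnrc6a library (788) lay above the highest Ago1 library (661). Tnrc6b stood at 413 ± 36.8, Drosha at 371 ± 31.5 and Dicer1 at 327 ± 5.15, with overlapping ranges between neighbours. Dgcr8 at 230 ± 63.5, Ago3 at 138 ± 4.62 and Ago4 at 6.90 ± 6.12 were each separated from the gene above. Ago4 was thus near 0. The order depends on the transcript model for some genes: with the longest transcript as length, Tnrc6a (1361) led and Dicer1 (556) passed Drosha (481).

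Drosha, the nuclear nuclease, overlapped between the groups of both comparisons. Its normalized counts in cKO Tregs were 1995.2, 2243.2, 1996.3, 2225.4 and 2362.1, and in WT Tregs 2339.7, 1924.2, 2251.7 and 2281.5. Those 2 groups covered nearly the same range. CD25hi libraries held 2327.6, 2062.6 and 2394.9, and CD25lo libraries 1771.2 and 2168.9, the first of which was the lowest of all 14. Its log2 fold change was -0.02 (95% interval -0.21 to 0.17) between cKO and WT and -0.20 (-0.47 to 0.06) between CD25lo and CD25hi, with limma adjusted p-values of 0.945 and 0.506. The latter was -0.06 without CD25lo replicate 1 and -0.35 without CD25lo replicate 2.

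Dgcr8, its RNA-binding partner, was the most variable of the well-expressed genes relative to its mean in the WT and CD25lo libraries, but not in cKO or CD25hi. It ranged from 1416.2 to 1773.5 (median 1582.3) in the 5 cKO libraries, whereas the 4 WT libraries held 1883.6, 1193.6, 1642.8 and 2366.8 and enclosed all of the cKO values. CD25hi libraries held 2277.9, 1931.2 and 2205.5 and CD25lo libraries 2296.8 and 1550.2. The log2 fold change was -0.11 (-0.44 to 0.21, limma adjusted p = 0.788) for cKO and -0.18 (-0.62 to 0.26, limma adjusted p = 0.768) for CD25lo, so changes of up to these bounds could not be told from 0. The cKO value was 0.04 without WT replicate 4, and the CD25lo value was 0.11 without CD25lo replicate 2. Dgcr8 shares 825 of its 7696 exon bases with Trmt2a on the opposite strand, and whether reads were counted by strand is not given in the sources used here.

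Dicer1 was measured at 5499.2, 5160.7, 5134.3, 5115.0 and 4580.9 normalized counts in cKO Tregs and at 5465.6, 5604.3, 5406.1 and 5445.9 in WT Tregs. Only cKO replicate 1 reached the WT range. The group means differed by -6.98%, with a log2 fold change of -0.11 ± 0.07 (SE) and a limma adjusted p of 0.497. CD25hi libraries held 5635.7, 6431.3 and 5191.9 and CD25lo libraries, which lay within them, 5780.2 and 5290.5 (log2 fold change -0.05, limma adjusted p = 0.870).

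**Figure D2:**
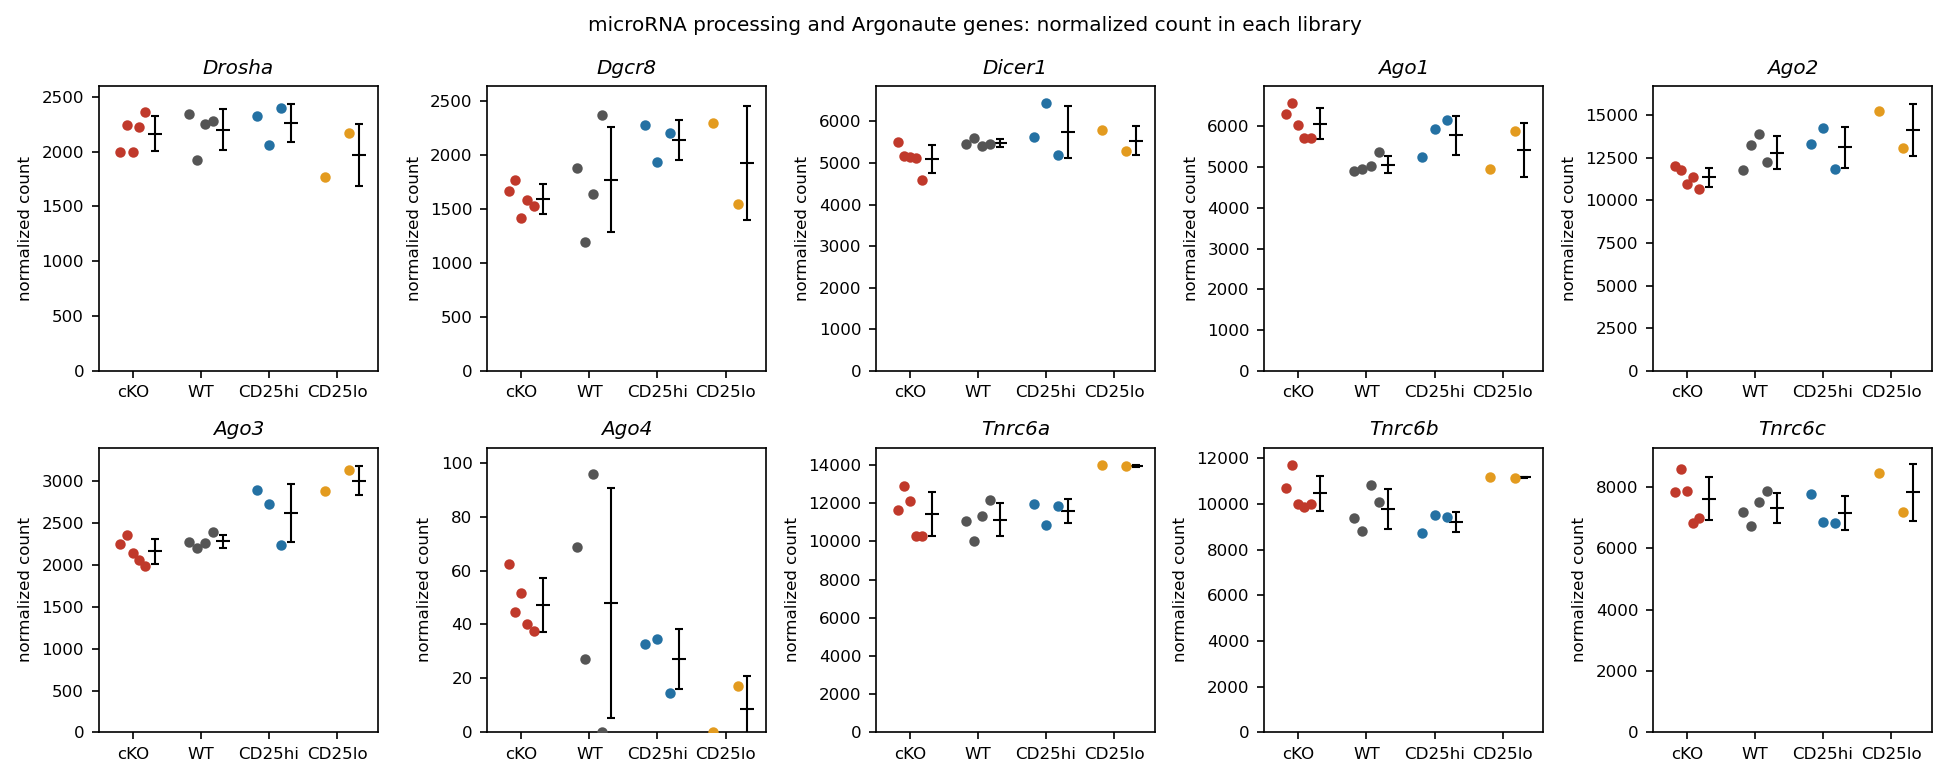
Each point is the normalized count of a gene in 1 library, by group, on a linear axis from 0, and the bar beside each group is the mean ± SD (5 cKO, 4 WT, 3 CD25hi and 2 CD25lo libraries). Ago1 in cKO lies above WT without overlap, Tnrc6a and Tnrc6b in CD25lo lie above CD25hi without overlap, and Ago4 stays below 100 in every library.

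Ago1, which binds microRNAs but slices poorly, showed the smallest p-value of the 10 genes between cKO and WT. Its normalized counts were 6310.9, 6563.2, 6027.8, 5716.1 and 5702.3 in cKO Tregs and 4890.8, 4948.0, 5019.8 and 5366.7 in WT Tregs. Every cKO library lay above every WT library, a separation that 4.92% of all tested genes showed in the same direction. The mean was 19.9% higher in cKO, with a log2 fold change of 0.26 ± 0.07 (SE; 95% interval 0.11 to 0.41). In the limma fit the unadjusted p was 0.00182 and the adjusted p 0.0511, which missed the threshold of 0.05. On the whole reads recovered from the normalized counts, the adjusted p was 0.0469 by edgeR with TMM scaling and 0.00816 by DESeq2. By edgeR with the DESeq2 size factors it was 0.0572, so the call depended on the tool and on the scaling. Ago1 also passed in limma without WT replicate 4 (adjusted p = 0.0408). It passed without CD25hi replicate 1 (0.0460), CD25lo replicate 1 (0.0405) or CD25lo replicate 2 (0.0411), which enter this comparison only through the shared spread. No other left-out library gave a call. The limma adjusted p was 0.0565 to 0.129 without any one cKO library, and 0.117 and 0.106 without WT replicates 1 and 2. With sex as a term the log2 fold change was 0.27 with a limma adjusted p of 0.726, a fit in which the 1 female WT library carries the separation of sex from genotype. That library held 5019.8, below the lowest cKO library. With the immediate early level as a term the log2 fold change was 0.26 and the limma adjusted p 0.0195. The summed level of 8 B cell markers was also higher in cKO (994 to 1314 normalized counts, WT 536 to 969), with none of the 6 tested markers called and Cd79a at 9.4 to 29.0 in cKO and 27.7 to 52.1 in WT, and its part in the result was not tested. In bulk libraries, fewer cells of a type and less RNA per cell cannot be told apart.

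CD25hi Tregs held 5244.4, 5924.0 and 6159.3 normalized counts of Ago1 and CD25lo Tregs 4948.2 and 5878.9. These groups overlapped (log2 fold change -0.10 ± 0.10, limma adjusted p = 0.730). The difference between the cKO and the CD25lo effects on Ago1, which share no library, was 0.36 ± 0.12 on the log2 scale, with an unadjusted p of 0.00852 and a limma adjusted p of 0.177.

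Ago2 moved the other way in cKO Tregs, within overlapping ranges. Its normalized counts were 12008.7, 11787.1, 10971.3, 11361.2 and 10668.1 in cKO and 11779.8, 13220.1, 13902.5 and 12266.8 in WT, so that WT replicate 1 lay among the highest cKO libraries. The log2 fold change was -0.17 ± 0.07 (95% interval -0.32 to -0.02), with an unadjusted p of 0.0268 and a limma adjusted p of 0.229. With sex as a term it was -0.29 ± 0.11 (limma adjusted p = 0.620). CD25hi libraries held 13278.1, 14230.5 and 11806.4 and CD25lo libraries 15209.2 and 13053.8 (log2 fold change 0.11, limma adjusted p = 0.672). The difference between the cKO and CD25lo effects was -0.28 ± 0.12 (limma adjusted p = 0.305). Ago2 shares 219 of its 14031 exon bases with Chrac1 on the opposite strand.

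The ratio of Ago1 to Ago2 normalized counts was taken after the values had been seen and is given as a description. It was 0.526, 0.557, 0.549, 0.503 and 0.535 in the cKO libraries and 0.415, 0.374, 0.361 and 0.437 in the WT libraries. CD25hi libraries spanned both groups with 0.395, 0.416 and 0.522, and CD25lo libraries had 0.325 and 0.450. As a share of the summed Argonaute level per kilobase, Ago1 took 42.8% to 45.0% in cKO and 35.1% to 39.4% in WT, and Ago2 46.7% to 49.3% in cKO and 52.1% to 56.3% in WT. Shares of 1 sum are tied to each other, so these are not 2 separate findings.

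**Figure D3:**
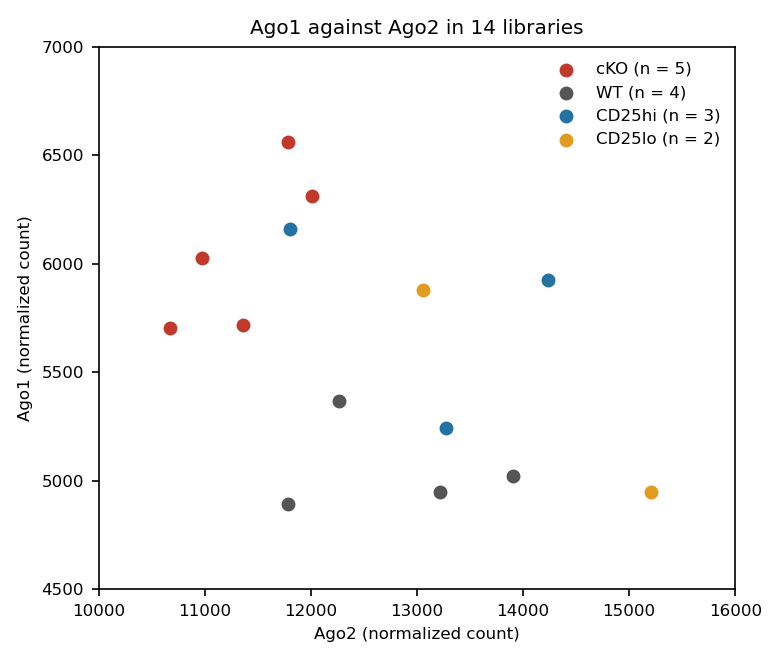
Normalized counts of Ago1 (vertical axis) against Ago2 (horizontal axis), 1 point per library, colored by group, with axes that do not start at 0. The 5 cKO points lie at 5702.3 or more on the Ago1 axis, above the 4 WT points, and the CD25hi and CD25lo points spread over the height of both.

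Ago3 is the third Argonaute by level and lies next to Ago1 on chromosome 4, minus strand (Ago3 at chr4:126331704-126429556, Ago1 at chr4:126435012-126468583, Ago4 at chr4:126489541-126533472). Ago3 held 2251.5, 2359.5, 2146.2, 2057.4 and 1981.3 in cKO and 2276.2, 2202.6, 2262.9 and 2386.4 in WT, which overlapped (log2 fold change -0.08 ± 0.09, limma adjusted p = 0.709). Its counts were 2896.2, 2730.8 and 2234.5 in CD25hi and 2881.4 and 3126.7 in CD25lo Tregs (0.20 ± 0.12, limma adjusted p = 0.468).

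Ago4 gave between 0 and 94 reads per library. It held 62.4, 44.6, 51.6, 40.0 and 37.7 normalized counts in cKO, 68.7, 27.3, 95.6 and 0 in WT, 32.8, 34.6 and 14.5 in CD25hi, and 0 and 17.2 in CD25lo libraries. The 0 of WT replicate 4 and of CD25lo replicate 1 each allow up to 3 reads, counting error only. Group means of 47.3 in cKO and 47.9 in WT were close, although the log2 fold change, which the library at 0 sets, was 1.18 with a 95% interval of -1.27 to 3.64 (limma adjusted p = 0.688) and -0.28 without that library. Between CD25lo and CD25hi it was -2.64 with an interval of -5.97 to 0.70 (limma adjusted p = 0.499). No difference in Ago4 was detectable at this depth.

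The TNRC6 genes did not differ between cKO and WT Tregs beyond the spread of the libraries. Tnrc6a held 11634.1, 12915.2, 12090.6, 10281.0 and 10270.6 normalized counts in cKO and 11061.3, 10016.1, 11312.3 and 12158.9 in WT. Tnrc6b held 10713.6, 11723.8, 10001.9, 9856.9 and 9989.2 in cKO and 9375.5, 8810.5, 10818.3 and 10089.1 in WT. For both genes the groups overlapped, with log2 fold changes of 0.04 (95% interval -0.12 to 0.19) and 0.10 (-0.05 to 0.24) and limma adjusted p-values of 0.874 and 0.530. With sex as a term the log2 fold change of Tnrc6b was -0.05.

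In the CD25 bins, Tnrc6a and Tnrc6b were the genes that separated. Tnrc6a held 11976.8, 10843.8 and 11871.1 in CD25hi and 13986.3 and 13920.7 in CD25lo Tregs, and Tnrc6b held 8712.0, 9505.4 and 9441.4 in CD25hi and 11182.1 and 11136.2 in CD25lo Tregs. Both CD25lo libraries lay above all 3 CD25hi libraries for each gene, but with 3 libraries against 2 this held in the same direction for 12.9% of all tested genes. Means were 20.7% and 21.04% higher in CD25lo, with log2 fold changes of 0.27 ± 0.10 and 0.28 ± 0.09. The limma p-values were 0.0149 and 0.00850 unadjusted and 0.222 and 0.168 adjusted, so neither was called, nor was either by edgeR (adjusted p = 0.257 and 0.206) or DESeq2 (adjusted p = 0.117 and 0.0685).

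Tnrc6c held 6843.3 to 8581.3 normalized counts (median 7837.8) in the 5 cKO libraries and 7176.4, 6713.8, 7506.3 and 7867.2 in WT. CD25hi libraries held 7787.8, 6847.9 and 6837.8 and CD25lo libraries 8471.6 and 7173.8. The groups overlapped in both comparisons, with log2 fold changes of 0.06 (limma adjusted p = 0.790) and 0.13 (limma adjusted p = 0.655). Of the summed TNRC6 level per kilobase, Tnrc6c made up 30.3% to 30.8% in cKO, 30.3% to 31.1% in WT, 28.5% to 31.6% in CD25hi and 26.3% to 29.5% in CD25lo.

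Taken as a list, none of the 10 genes passed the limma test in either comparison or in the difference between the 2 effects. The background was 3.52% of all tested genes called between cKO and WT, 1.62% between CD25lo and CD25hi and 1.03% in the difference. At an unadjusted limma p under 0.05 there were 2 of 10 between cKO and WT (Ago1 higher, Ago2 lower), where 16.1% of all genes were, and 2 of 10 between CD25lo and CD25hi (Tnrc6a and Tnrc6b, both higher), where 13.5% were. Both edgeR with TMM scaling and DESeq2 called 1 of the 10, Ago1, between cKO and WT, beside 3.21% and 4.42% of all genes. Neither called any between CD25lo and CD25hi, beside 1.37% and 3.4%. With the DESeq2 size factors edgeR called 0 of the 10 between cKO and WT. The median log2 fold change of the 10 genes was 0.01 between cKO and WT (0.05 over all genes) and 0.03 between CD25lo and CD25hi (0 over all genes).

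**Figure D4:**
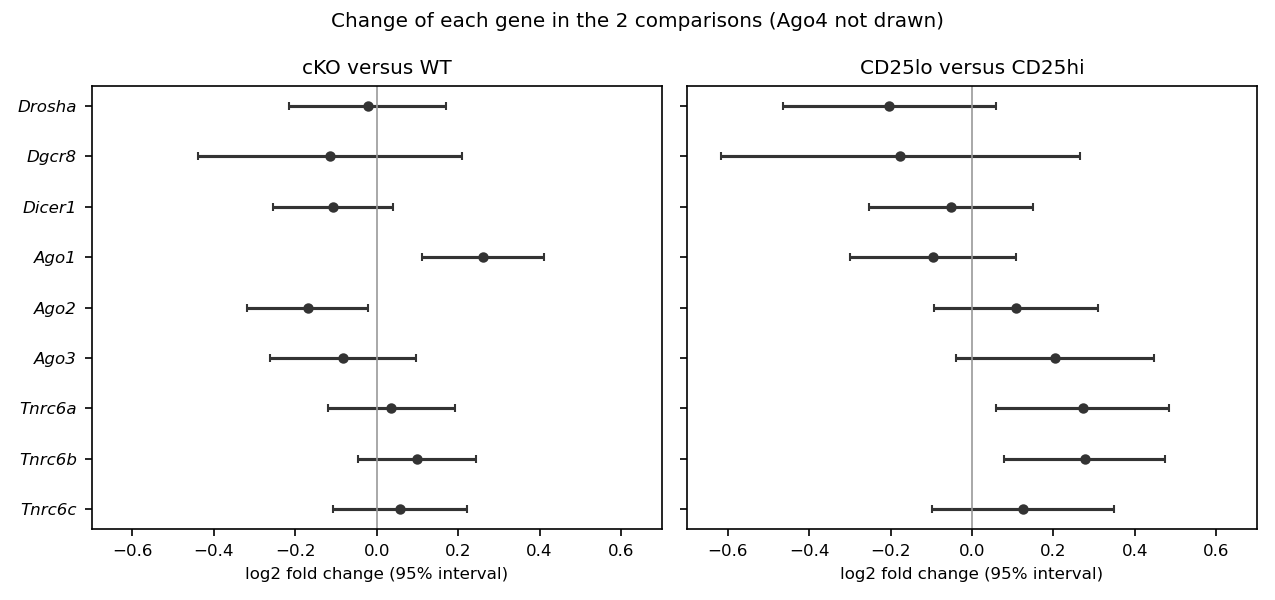
Log2 fold change of each gene with its 95% interval from the limma fit, cKO versus WT on the left and CD25lo versus CD25hi on the right, the vertical line marking 0. Ago4 is not drawn, since its interval runs from -1.27 to 3.64 on the left. Intervals that leave out 0 are those of Ago1 and Ago2 on the left and of Tnrc6a and Tnrc6b on the right, none of which passed after adjustment.

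The genes whose log2 levels followed Ago1 most closely over the 14 libraries, among 5829 genes with a mean of at least 1000 normalized counts, were Nxpe3 (Pearson r = 0.916), Narf (0.868) and Gaa (0.855). The libraries share groups and depth, and the values are a description. Each was higher in cKO than in WT without overlap, for example Gaa with 1750.0 to 1823.8 against 1128.1 to 1440.9 normalized counts. Ago1 separated these groups in the same way, so choosing genes by their likeness to it favours such genes. Their separation is therefore not a further finding, and 4.92% of all tested genes showed it in this direction.

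The other genes of the pathway were taken from 6 lists of 92 genes, of which 88 were tested. Between cKO and WT Tregs 3 rose and 1 fell by limma, beside 2.04% and 1.48% of all genes. DESeq2 called 6, beside 4.42% of all genes. At an unadjusted limma p under 0.05 there were 10 higher and 8 lower, where 16.1% of all genes were. None of 12 genes of nuclear processing and export passed by limma (for example Xpo5, which carries precursors out of the nucleus). Nor did any of 19 deadenylation genes or of 13 tailing, trimming and decay genes. In this order 3, 2 and 1 were at an unadjusted limma p under 0.05, where 16.1% of all genes were. edgeR also called none in these lists, and DESeq2 called 1 in the first, beside 4.42% of all genes. This was the cap-binding gene Ncbp1, lower in cKO (limma log2 fold change -0.22 ± 0.07, adjusted p = 0.0943), which is named after its value was seen. By limma, among 13 Dicer partners and loading factors 1 rose, and among 12 genes of Argonaute modification and turnover 1 rose and 1 fell. Among 19 genes of decapping and translational repression 1 rose by limma and 2 by DESeq2.

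Ankrd52, the subunit of a phosphatase that removes phosphates from Argonaute and so lets it engage new targets, showed the clearest change of the pathway. It held 9344.8, 9867.5, 9358.5, 9332.8 and 8952.5 normalized counts in cKO and 5591.6, 6057.5, 6420.6 and 6770.6 in WT Tregs. The groups were far apart, with a log2 fold change of 0.60 ± 0.06 and a limma adjusted p of 2.25e-05. Without WT replicate 4 it was 0.64. In CD25hi (5965.0, 6037.1 and 6307.2) and CD25lo Tregs (6612.1 and 6044.5) it lay within the WT range, with a log2 fold change of 0.05 ± 0.09 between the bins (limma adjusted p = 0.850). The 3′ UTR of Ankrd52 (3285 bases) held none of the seed matches searched. Those of Mov10 (313 bases), P4ha1 (2230 bases) and Fkbp5 (1953 bases), described next, held 1 each, and of these P4ha1 fell in cKO. Whether these matches are used was not tested. With sex as a term the log2 fold change of Ankrd52 was 0.54, but limma no longer called it. In that fit the 1 female WT library carries the separation of sex from genotype. That library, at 6420.6, lay below all cKO libraries.

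Mov10, a helicase found with Argonaute and TNRC6 proteins, held 5051.7, 4961.7, 4722.6, 4548.9 and 4431.3 in cKO and 2754.1, 2287.8, 3032.4 and 4265.0 in WT Tregs. In WT replicate 4 the immediate early level was low, as in the CD25 bins. For Mov10 the groups did not overlap, although this library came near the cKO range. Its log2 fold change was 0.66 ± 0.13 (limma adjusted p = 0.00628), 0.83 without WT replicate 4, 0.64 with the immediate early level as a term (limma adjusted p = 0.000353) and 0.64 with sex as a term (limma adjusted p = 0.449). The myeloid markers given above were also higher in WT replicates 1 to 3 than in WT replicate 4, and their part in the Mov10 values was not tested. CD25hi libraries, at 3870.9, 4713.0 and 4930.0, and CD25lo libraries, at 4151.7 and 3678.8, lay above WT replicates 1 to 3. Within the cKO range were the CD25hi values of 4713.0 and 4930.0. The difference between the cKO and CD25lo effects was 0.85 ± 0.21 (limma adjusted p = 0.0615, DESeq2 adjusted p = 0.0151).

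P4ha1, the catalytic subunit of a prolyl hydroxylase that modifies Ago2, fell in cKO Tregs. It held 2135.2, 2457.1, 1905.8, 2136.4 and 2120.4 in cKO and 2596.9, 3085.0, 2657.3 and 2800.5 in WT. The groups did not overlap, as for 3.62% of all tested genes in this direction, with a log2 fold change of -0.37 ± 0.08 and a limma adjusted p of 0.0135. With sex as a term it was -0.31 ± 0.14 (limma adjusted p = 0.724), and the female WT library, at 2657.3, lay above all cKO libraries. Without WT replicate 4 it was -0.37. In CD25hi (2730.1, 2902.9 and 2758.3) and CD25lo Tregs (2340.4 and 2517.1) it differed by -0.20 ± 0.11 on the log2 scale (limma adjusted p = 0.453).

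Fkbp5, a co-chaperone listed with the HSP90 machinery that loads Argonaute, held 3209.8, 3030.9, 3230.5, 4333.9 and 3893.6 in cKO and 2513.6, 1930.7, 3291.6 and 2301.1 in WT Tregs. The female WT library, replicate 3, lay among the cKO libraries. The log2 fold change was 0.51 ± 0.13 (limma adjusted p = 0.0369), and 0.09 with a limma adjusted p of 0.998 with sex as a term. Leaving out any one of cKO replicates 1, 3, 4 and 5 or WT replicates 1, 2 and 4 ended the call, at limma adjusted p-values of 0.0553 to 0.123. CD25hi (2302.3, 2752.2 and 2813.4) and CD25lo libraries (2350.4 and 2564.5) overlapped.

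**Figure D5:**
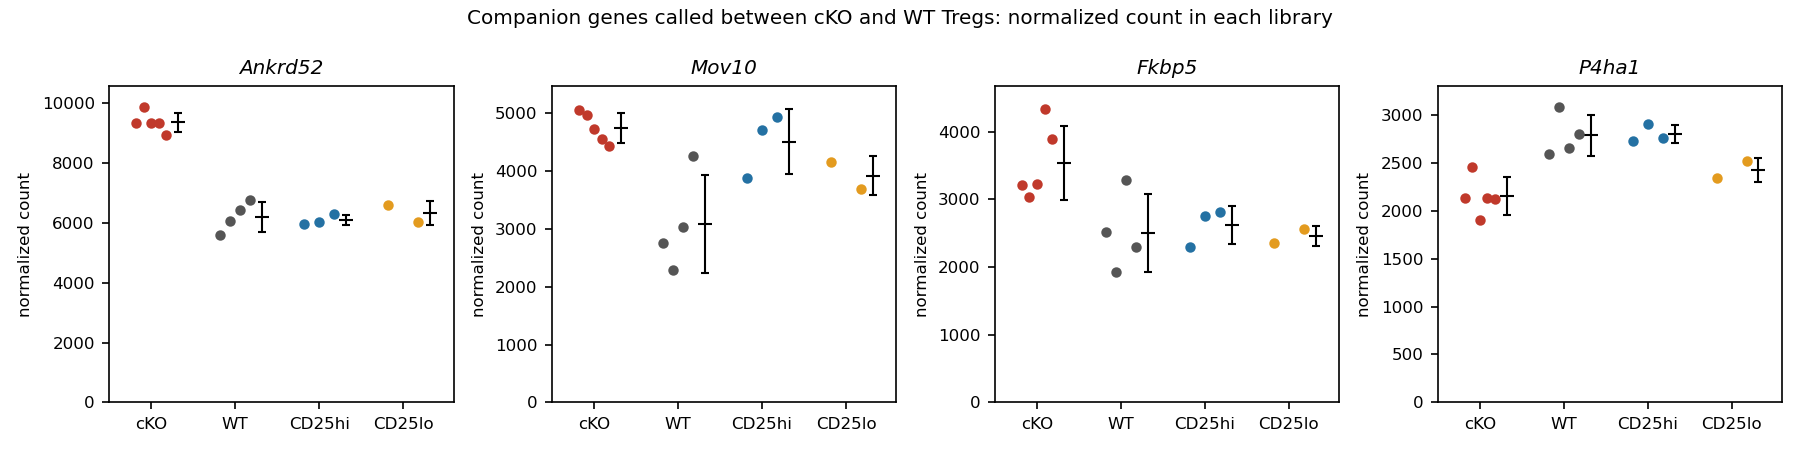
Normalized count in each library of the 4 pathway genes called between cKO and WT by limma, by group, with the mean ± SD beside each group. Ankrd52 in cKO (8952.5 or more) is above all other libraries, Mov10 and P4ha1 are separated between cKO and WT, and Fkbp5 overlaps between them.

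Between CD25lo and CD25hi Tregs none of the 88 genes was called by limma. At an unadjusted limma p under 0.05 there were 11, 5 higher and 6 lower, where 13.5% of all genes were. edgeR called none and DESeq2 1, beside 3.4% of all genes by DESeq2. The gene was Pabpc4, a poly(A)-binding protein, which is named here after its value was seen. Its limma log2 fold change was -0.82 ± 0.24 (adjusted p = 0.0942, and 0.0404 without WT replicate 2).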

How the data were processed

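Per the labels and the study's methods, total RNA of sorted Tregs was made into libraries with the NuGEN Universal Plus kit, sequenced single-end, aligned to GRCm38 by the authors with STAR 2.7.2b and normalized with DESeq2 1.24.0. The table deposited by the authors gives a signal per gene and library, reads divided by the size factor and rounded to 0.1. Whole reads were recovered for 100% of values (within 0.055). Columns with the authors' own comparisons (fold changes, p-values) were not used. Read counting and its strand setting are not given in the sources used here.

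The normalized counts were tested on the log2(value + 1) scale with limma-trend 3.58.1, 4 group means over 14 libraries, Benjamini-Hochberg adjustment over all 16241 genes, called at an adjusted p under 0.05. On this scale the pseudocount sets the fold change of a gene with a library at 0, such as Ago4. Recovered reads were tested with edgeR 4.0.16 (quasi-likelihood, TMM scaling unless stated) and DESeq2 1.42.0, and code was tested on simulated data. Named were all 10 genes, per list and comparison up to 4 called genes, and the 3 genes most like Ago1. The 10 genes and all lists were chosen with earlier results of these data known. Sex and the immediate early level were read from the libraries. Lengths and 3′ UTRs came from GENCODE M21. CD8 T and NK cell, erythroid and proliferation marker lists had no gene called in either comparison.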

Additional observations from a re-analysis of the deposited data

Results flagged for a closer look

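Among the genes of the pathway, the effect on Ankrd52 differed between the 2 comparisons. Its log2 fold change was 0.60 between cKO and WT and 0.05 between CD25lo and CD25hi, and the difference was 0.5452 (SE 0.11, limma adjusted p = 0.0190), where 1.03% of all tested genes were called. The call was lost without CD25hi replicate 3 (0.52, limma adjusted p = 0.0559), without CD25lo replicate 2 (0.48, limma adjusted p = 0.103) and with sex as a term (0.49, limma adjusted p = 0.249). For the 14 named genes in the cKO and WT groups (28 tests), Dixon's test marked no library.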

How the results depend on the processing

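The call of Ago1 decides the count of the 10 genes between cKO and WT. That count was 0 and became 1 with edgeR and TMM, with DESeq2, with a pseudocount of 5, with a filter at a mean of 100, with only the groups compared in the fit and with the immediate early level as a term, and was 0 or 1 when libraries were left out in turn (1 without WT replicate 4, CD25hi replicate 1, CD25lo replicate 1 or CD25lo replicate 2). In the other comparison and in the difference it was 0 throughout. Of the 88 further genes, 4 were called between cKO and WT, 0 with sex as a term, 8 with the immediate early level as a term, and 3 to 8 with libraries left out (8 without WT replicate 4). Between CD25lo and CD25hi 0 were called, 1 with DESeq2, and 0 to 1 with libraries left out (1 without WT replicate 2). Over all genes, 572 were called between cKO and WT, 1046 by DESeq2, which tested 23665 genes, 290 with the replicate block and 22 with sex as a term. Between CD25lo and CD25hi 263 were called, 805 by DESeq2, 105 with the replicate block, 449 with the immediate early level as a term and 0 with only those 5 libraries in the fit (1649 at an unadjusted p under 0.05, limma). The cause of these shifts was not tested.

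Whether replicate numbers pair the libraries could not be decided. Deviations of same-numbered cKO and WT libraries correlated at -0.112, -0.102, -0.110 and -0.320, and those of CD25hi and CD25lo at 0.025 and -0.062. The few CD25lo libraries deviate from their group mean as mirror images, so their correlations cannot exclude that the bins were paired. With the replicate block the log2 fold change of Ago1 was 0.28 (limma adjusted p = 0.0938), Fkbp5 was not called (0.47, adjusted p = 0.102), nor was the Ankrd52 difference (adjusted p = 0.105).

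Directions turned between cKO and WT for Ago4 (-0.0135 with edgeR and TMM, -0.0191 with edgeR and DESeq2 size factors, -0.0192 with DESeq2, -1.02 with sex as a term) and Tnrc6b (-0.0521 with sex as a term). With libraries left out the log2 fold change between cKO and WT ran from -0.0850 to 0.0090 for Drosha, -0.2891 to 0.0399 for Dgcr8, -0.2774 to 1.92 for Ago4 and -0.0138 to 0.0794 for Tnrc6a. Between CD25lo and CD25hi it ran from -0.4601 to 0.1068 for Dgcr8, -0.1226 to 0.0318 for Dicer1, -0.2198 to 0.0288 for Ago1, -0.0014 to 0.2191 for Ago2 and -0.0135 to 0.1160 for Ankrd52. None of these was called. Per kilobase of the longest transcript, WT levels became 481 for Drosha, 410.1 for Dgcr8, 556 for Dicer1, 699.6 for Ago1, 146 for Ago3, 1361 for Tnrc6a, 564 for Tnrc6b and 631 for Tnrc6c. The other log2 fold changes of the 10 genes and of Ankrd52, Mov10, P4ha1, Fkbp5, Ncbp1 and Pabpc4 kept their direction under the alternatives run. With 2 CD25lo libraries, changes within the intervals given could not be told from 0.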
